A study of Mus musculus with 18 samples.

Results

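The stimulation response of FOXS1 KO clone 2 was compared with that of WT cells as a difference of differences: stimulated minus uninduced clone 2 libraries, minus the same contrast in WT libraries, on the log2 scale and in 1 model of the 4 groups. The comparison took 12 of the 18 libraries of the series, 3 per group, and 1102 of the 13919 genes with enough counts to be tested differed in their response. The cells were 10T1/2 (labelled CH310T1/2), a multipotent mouse fibroblast line that the labels call mesenchymal stem cells and that can turn to fat, muscle or cartilage lineages. WT libraries came from unedited cells and clone 2 libraries from a single-cell derived line edited with CRISPR/Cas9 and a pair of guides at *Foxs1*, which encodes a forkhead transcription factor. Uninduced cells were the untreated controls of each genotype, and stimulated cells spent 48 h in DMII (indomethacin, insulin, 3-isobutyl-1-methylxanthine and dexamethasone) after 12 h with TGF-β1 at 1 nM. Every stimulated group received every agent, so the parts of the response that belong to TGF-β1, to single DMII components or to the change of medium cannot be told apart. Clone 2 is 1 clone, so its genotype and its clonal history cannot be told apart either. Nothing in the labels says that the 3 libraries of a group were separate cultures, and p-values therefore measure the spread between these libraries, which may be technical.

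As background, TGF-β1 acts through receptor kinases and SMAD proteins and drives fibroblasts towards a contractile, matrix-producing myofibroblast state, in which serum response factor (SRF) and its actin-sensing cofactors switch on smooth muscle genes. DMII pushes the same cells the other way: dexamethasone activates the glucocorticoid receptor, 3-isobutyl-1-methylxanthine blocks the breakdown of cAMP and so activates CREB, and insulin and indomethacin favour lipid storage. C/EBPβ and C/EBPδ are the early adipogenic factors in this scheme, and they induce PPARγ and C/EBPα, which switch on the genes of lipid droplets and adipocyte hormones. Cells given TGF-β1 before DMII receive both kinds of signal.

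Library totals of the 4 groups ran from 15576685 to 42005596 counts, with 14964 to 19310 genes detected. The 12 libraries grouped by genotype and treatment on the first 2 principal components of log2 CPM (the count of a gene relative to its library's TMM-scaled total), which held 46.7% and 36.3% of the variance. Uninduced WT replicate 1 stood somewhat apart from its group on the third component (49.5, against 10.4 and 5.68), had the fewest detected genes and correlated with its replicates at r = 0.963 and 0.970 across genes, where replicates of the other groups reached 0.990 to 0.993. Without it, 732 genes had a higher and 465 a lower response than WT. Of the 12 mesenchymal markers 11 reached 1 CPM, with a summed level of 28460 to 30309 CPM in uninduced WT, 51663 to 52865 CPM in stimulated WT, 31476 to 32477 CPM in uninduced clone 2 and 58423 to 64440 CPM in stimulated clone 2 libraries, mostly collagen I. Epithelial, endothelial, haematopoietic and skeletal muscle markers summed to at most 7.84 CPM per list and library, with 1, 4 and 3 genes of the latter 3 lists at 0 in all 12 libraries. The endothelial sum was highest in uninduced WT (5.03 to 7.84 CPM), and the epithelial (2.87 to 3.43 CPM) and haematopoietic (6.03 to 6.51 CPM) sums in uninduced clone 2, and their part in the results was not tested. By chromosome, the median difference of genes at 5 CPM or more lay between -0.080 and 0.017.

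*Foxs1* itself (ENSMUSG00000074676, chromosome 2 of GRCm38 from 152931898 to 152933208) had 1.79, 3.21 and 1.61 CPM in uninduced and 3.13, 2.55 and 1.85 CPM in stimulated WT libraries, and 21.004, 22.8 and 23.8 and 38.7, 37.97 and 42.7 CPM in clone 2. Its RNA was thus higher in every library labelled FOXS1 KO clone 2 than in any WT library. The responses were 0.21 in WT cells and 0.82 in clone 2, and their difference of 0.62 (SE 0.27, adjusted p = 0.0866) was not called. Counts over a whole gene do not show an edit, and the direction of every comparison here rests on the genotype labels.

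Responses that differed were more often higher than lower in clone 2. By the quasi-likelihood test of edgeR, with p-values adjusted over all tested genes by the Benjamini-Hochberg method, 675 genes had a higher response in clone 2 (4.85% of those tested) and 427 a lower one (3.07%), together 7.92%. A gene is called here when its adjusted p is below 0.05 and its log2 difference exceeds 1 in absolute size, that is, when the fold responses of the genotypes differ by more than 2 times, and a positive difference means a higher response in clone 2. The median difference of all tested genes was -0.03, and 80% of genes lay between -0.73 and 0.91. Within WT cells 909 genes rose (6.53%) and 1849 fell (13.3%), 19.8% in all. Within clone 2, 910 rose (6.54%) and 1560 fell (11.2%), 17.7% in all.

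The largest class of higher responses was a fall in WT cells that was not called in clone 2. It includes falls in clone 2 under the fold threshold, such as those of *Klf4* (-0.98) and *Pparg* (-0.93). Of the 675 genes, 233 (34.5%) fell in WT cells and were not called in clone 2, 89 fell in both genotypes but less in clone 2, and 28 fell in WT cells and rose in clone 2. A rise called in clone 2 alone accounted for 178 (26.4%), a larger rise in clone 2 for 48, and in 99 neither response was called. Of the 427 genes with a lower response, 143 (33.5%) fell in clone 2 and were not called in WT cells, 113 (26.5%) rose in WT cells and were not called in clone 2, 64 fell further and 36 rose less in clone 2, 11 rose in WT cells and fell in clone 2, and in 60 neither response was called. A response called in 1 genotype and not in the other is a description of these classes. The test is that of the difference.

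**Figure D1:**
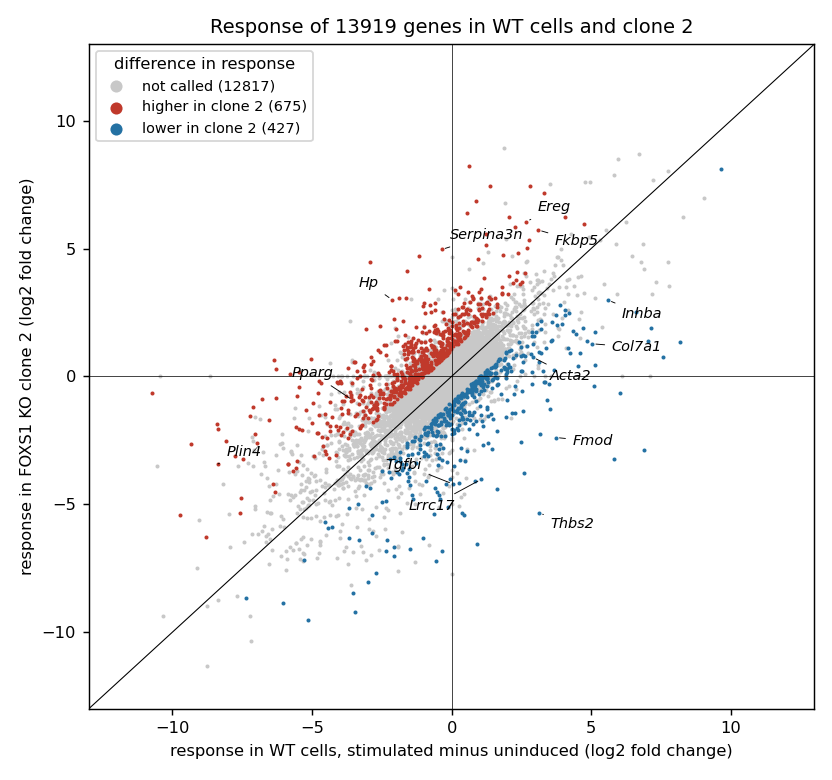
Log2 response to TGF-β1 + DMII of each of the 13919 tested genes in WT cells (x axis) and in FOXS1 KO clone 2 (y axis); the diagonal marks equal responses. The 675 genes with a called higher response in clone 2 lie above the diagonal, and the 427 with a lower one below it, with *Hp* in the quadrant of genes that fell in WT cells and rose in clone 2 and *Thbs2* and *Fmod* in the opposite one.

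The levels before and after stimulation showed where the genotypes parted. In uninduced cells 770 genes were higher (5.53%) and 1320 lower (9.48%) in clone 2 than in WT (15.0% in all), and in stimulated cells 1090 were higher (7.83%) and 1266 lower (9.1%; 16.9% in all). Among the genes with a higher response, 283 (41.9%) were higher than WT after stimulation and not called before it, 138 (20.4%) were lower than WT before stimulation and not called after it, and 36 went from lower to higher. Among those with a lower response, 140 (32.8%) were lower than WT after stimulation alone, 108 (25.3%) were lower at both times, 73 were higher before stimulation alone, and 9 went from higher to lower. At a mean of 5 CPM or more, 10076 genes were tested and 745 called, and 611 of these (406 higher, 205 lower) stayed called whichever of the 12 libraries was left out.

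Gene functions were followed through 39 lists that together held 1060 tested genes, of which 155 had a higher and 107 a lower response in clone 2. The remaining 520 higher and 320 lower calls belonged to no list. In bulk RNA, fewer cells of a type and less RNA per cell cannot be told apart, which holds for every group below.

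**Figure D2:**
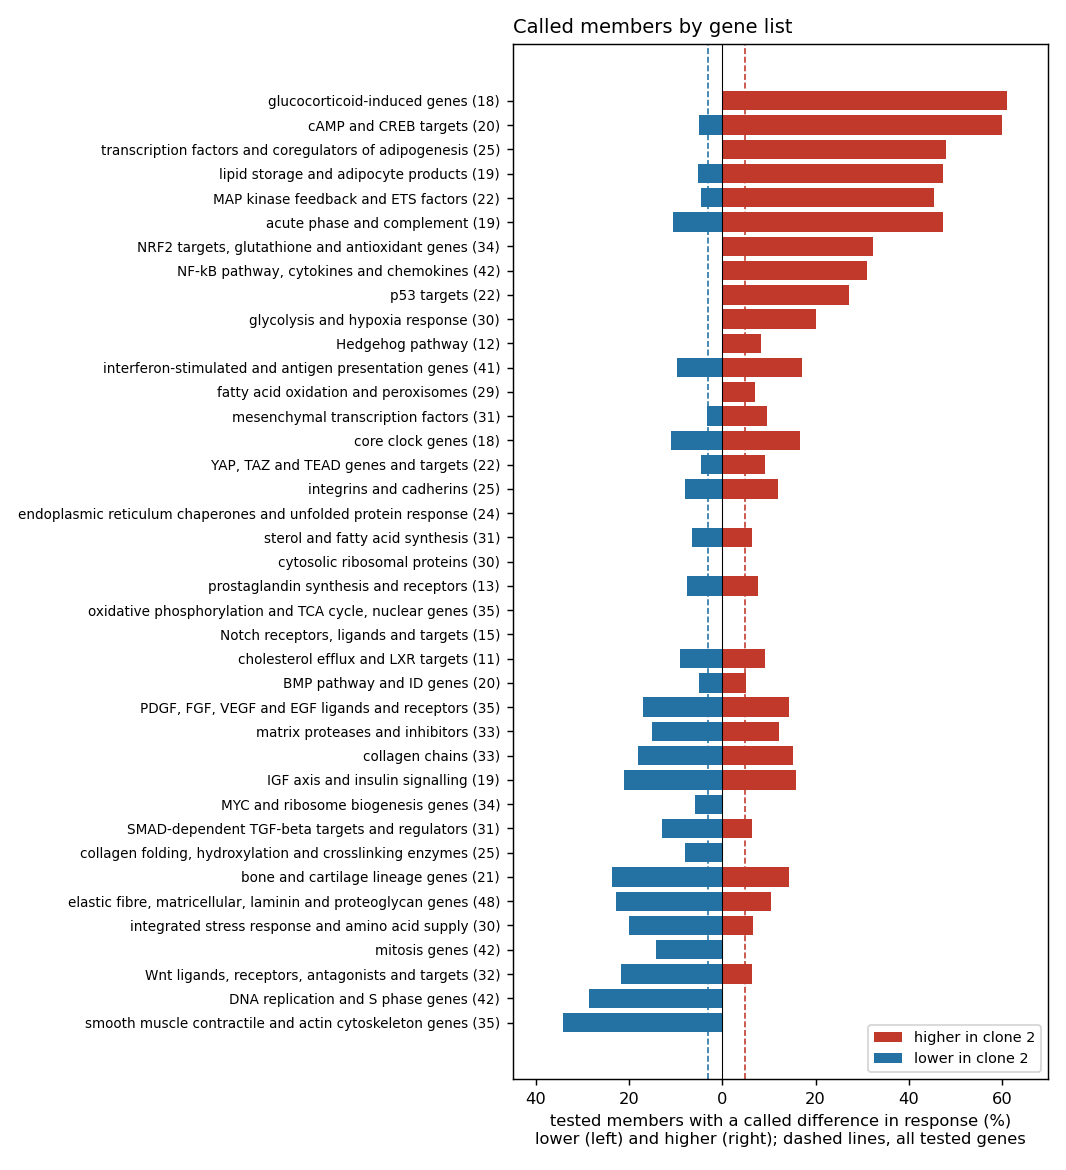
Share of the tested members of each gene list (number tested in brackets) with a called difference in response, lower in clone 2 to the left and higher to the right, in percent; dashed lines give the shares over all tested genes (3.07% and 4.85%). Glucocorticoid, cAMP, adipogenic, lipid storage, MAP kinase feedback and acute phase lists reach furthest to the right, and contractile and DNA replication lists furthest to the left.

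Glucocorticoid-induced genes mostly rose more or fell less in clone 2. Of 18 tested members 11 had a called higher response, with a median difference of 1.43 over the list against -0.03 over all genes. In WT cells 7 of the 18 rose and 4 fell, and in clone 2, 11 rose and 2 fell. *Fkbp5* had 7.15, 9.64 and 11.7 CPM in the uninduced and 84.3, 86.6 and 79.4 CPM in the stimulated WT libraries, and 5.07, 4.62 and 5.90 CPM uninduced and 279, 284 and 253 CPM stimulated in clone 2. *Fkbp5* encodes a co-chaperone of the glucocorticoid receptor and is among its most used target genes. It rose in both genotypes, and every stimulated clone 2 library lay above every stimulated WT library, while the order was reversed before stimulation. The responses were 3.10 in WT cells and 5.73 in clone 2, a difference of 2.62 (SE 0.17, adjusted p = 9.04e-10). In WT cells *Sgk1* read 83.2, 107 and 94.4 CPM uninduced and 336, 348 and 336 CPM stimulated, against 51.2, 44.1 and 48.6 CPM and 1308, 1305 and 1292 CPM in clone 2. *Sgk1*, a kinase that regulates ion transport, followed the same pattern, with a difference of 2.91 (SE 0.10, adjusted p = 6.17e-15). Levels of *Tsc22d3* were 15.9, 15.1 and 13.7 CPM in uninduced and 3.81, 4.53 and 5.61 CPM in stimulated WT libraries, and 35.7, 32.9 and 32.3 CPM and 83.6, 81.8 and 80.6 CPM in those of clone 2. *Tsc22d3* encodes GILZ, an anti-inflammatory mediator of glucocorticoids, and it went in opposite directions, falling by 1.67 on the log2 scale in WT cells and rising by 1.28 in clone 2. Its groups did not overlap in either genotype, and the difference was 2.95 (SE 0.14, adjusted p = 5.31e-13). *Sult1a1*, a sulfotransferase, fell in both genotypes to 2 counts over the 3 stimulated WT libraries and 17 over those of clone 2, so that its fitted difference of 4.25 rests on few counts. *Per1*, a clock gene that glucocorticoids also induce, had a difference of 0.92 (adjusted p = 7.76e-07), under the fold threshold.

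cAMP and CREB targets behaved similarly, and 12 of 20 tested members were called higher and 1 lower, with a median difference of 1.18. In WT cells *Pde4b* read 13.03, 13.7 and 13.4 CPM uninduced and 24.9, 26.1 and 26.6 CPM stimulated, against 3.27, 2.95 and 2.78 CPM and 74.4, 74.0 and 74.4 CPM in clone 2. *Pde4b* encodes a phosphodiesterase that degrades cAMP. Its level before stimulation was lower in clone 2 than in WT, and its level after stimulation was higher in every library. The response was not called in WT cells (0.95) and was 4.60 in clone 2, a difference of 3.65 (SE 0.12, adjusted p = 1.59e-15). For *Ereg*, values were 5.30, 5.96 and 6.89 CPM in uninduced WT cells, 38.1, 39.2 and 40.9 CPM in stimulated WT cells, 4.45, 4.97 and 3.47 CPM in uninduced clone 2 and 276, 282 and 315 CPM in stimulated clone 2. *Ereg* and its neighbour *Areg* encode the EGF receptor ligands epiregulin and amphiregulin. *Ereg* rose in both genotypes, and the difference of its responses was 3.37 (SE 0.15, adjusted p = 7.82e-14). *Areg* counts were low, with 7 and 51 over the uninduced and stimulated WT libraries and 1 and 154 over those of clone 2, and its difference of 4.65 (adjusted p = 0.0200) was not called in every fit that left out a library. *Nr4a1*, an orphan nuclear receptor and immediate early gene, had 114 ± 14.7 and 43.5 ± 6.18 CPM in WT cells and 103 ± 5.13 and 202 ± 7.91 CPM in clone 2 (mean ± SD, n = 3, uninduced and stimulated), falling in WT cells alone, with a difference of 2.37 (SE 0.13, adjusted p = 1.59e-09). The nuclear receptors *Nr4a2* and *Nr4a3* and the kinase *Sik1* were also among the called members. *Pde10a*, another phosphodiesterase, was far lower in clone 2 than in WT at both times (6.87 ± 1.19 and 15.5 ± 0.586 CPM in WT cells and 0.0514 ± 0.0706 and 0.762 ± 0.0371 CPM in clone 2) and rose more, by 3.86 against 1.17. *Crem*, itself a cAMP-induced repressor, had a difference of 0.46 (adjusted p = 0.100) and was not called. The member with a lower response was *Gem*, a small GTPase, with 43 and 3 counts over the uninduced and stimulated clone 2 libraries and a difference of -3.46 (adjusted p = 0.000881).

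**Figure D3:**
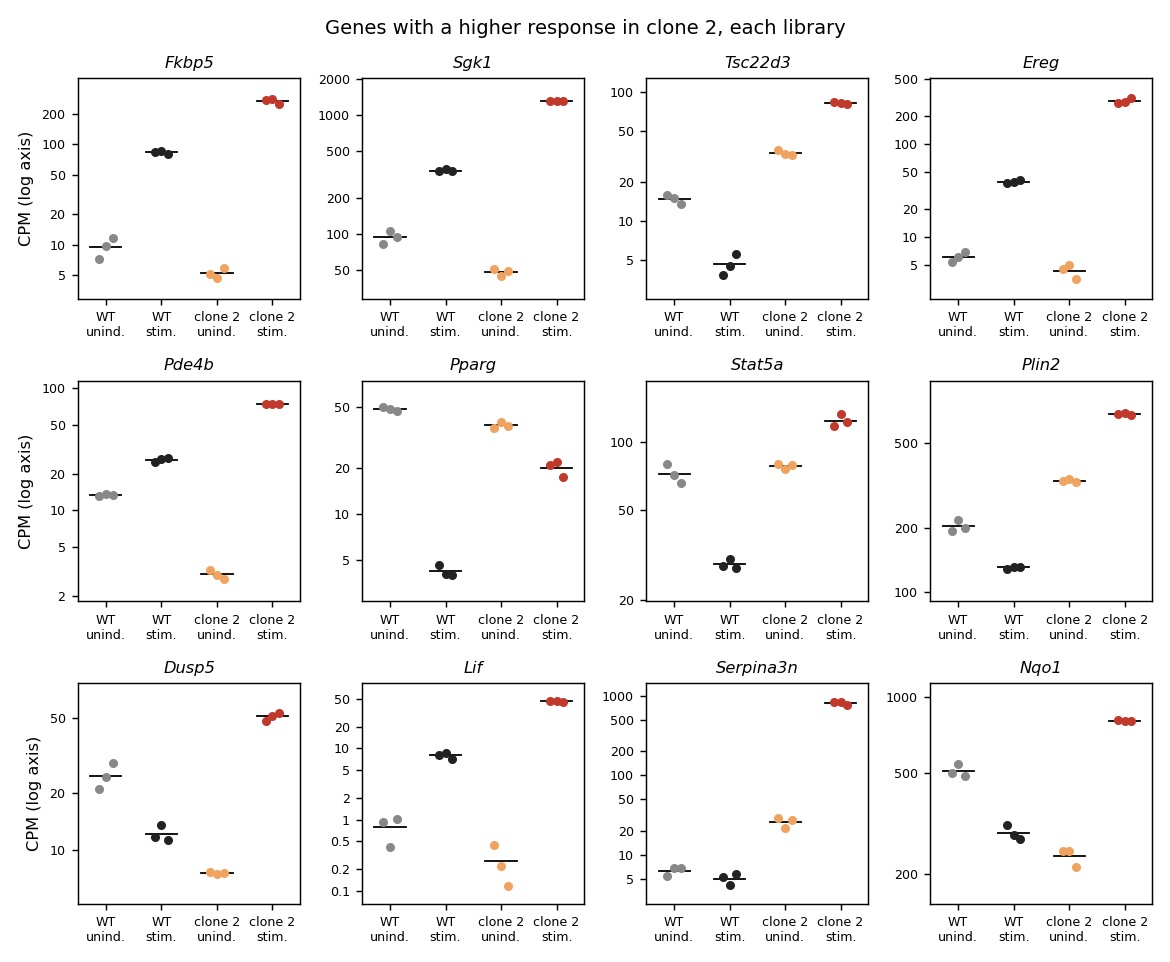
CPM of 12 genes with a called higher response in clone 2, in each of the 3 libraries of uninduced WT, stimulated WT, uninduced clone 2 and stimulated clone 2 cells (log axis; points are libraries and horizontal lines group means). Stimulated clone 2 libraries lie above stimulated WT libraries in every panel, and *Tsc22d3*, *Stat5a*, *Dusp5* and *Pparg* fall between uninduced and stimulated WT libraries.

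Adipogenic regulators fell less or rose more in clone 2. Of 25 tested transcription factors and coregulators of adipogenesis 12 were called higher, and the median difference was 1.09. In WT cells 12 of the 25 fell and 2 rose, and in clone 2, 4 fell and 6 rose. Levels of *Pparg* were 50.5, 48.6 and 47.2 CPM in uninduced and 4.59, 4.01 and 3.93 CPM in stimulated WT libraries, and 36.7, 39.98 and 37.8 CPM and 20.8, 22.02 and 17.3 CPM in those of clone 2. *Pparg* (ENSMUSG00000000440, chromosome 6 of GRCm38 from 115360951 to 115490399) encodes PPARγ, the factor that fat cell formation requires. Its WT groups were far apart, whereas in clone 2 the response of -0.93 was not called. The difference was 2.62 (SE 0.14, adjusted p = 3.05e-12). *Stat5a* had 80.5, 71.7 and 65.8 CPM in the uninduced and 28.1, 30.4 and 27.7 CPM in the stimulated WT libraries, and 80.2, 76.4 and 79.0 CPM uninduced and 118, 133 and 123 CPM stimulated in clone 2. *Stat5a* encodes a transcription factor upstream of PPARγ in adipogenesis. The 3 stimulated libraries lay below the uninduced ones in WT cells and above them in clone 2, and the difference was 2.004 (SE 0.10, adjusted p = 7.68e-13). In WT cells *Klf4* read 81.5, 81.2 and 89.1 CPM uninduced and 4.93, 6.13 and 6.15 CPM stimulated, against 76.3, 72.8 and 72.7 CPM and 37.7, 34.96 and 39.8 CPM in clone 2. *Klf4*, an early zinc-finger factor of adipogenesis, fell in WT cells (-3.87) and its response in clone 2 (-0.98) was just under the fold threshold, a difference of 2.89 (SE 0.12, adjusted p = 2.21e-14). *Klf15*, a later factor of the same family, had the largest difference of the list (3.02, adjusted p = 0.00329) at low levels, 3.66 ± 0.605 and 0.293 ± 0.0894 CPM in WT cells and 0.383 ± 0.0697 and 0.247 ± 0.126 CPM in clone 2. The C/EBP genes rose in both genotypes or stayed uncalled. *Cebpd* rose from 128 ± 13.4 to 272 ± 2.73 CPM in WT cells and from 222 ± 12.1 to 1006 ± 23.9 CPM in clone 2, a difference of 1.09 (SE 0.083, adjusted p = 9.1e-10). *Cebpb* rose from 181 ± 16.3 to 382 ± 12.2 CPM and from 262 ± 11.2 to 1067 ± 31.1 CPM, and its difference of 0.95 (adjusted p = 2.94e-09) was under the fold threshold. *Cebpa* went from 86.2 ± 3.03 to 47.6 ± 1.13 CPM in WT cells and from 27.5 ± 1.41 to 23.9 ± 0.767 CPM in clone 2, a difference of 0.65 (adjusted p = 1.2e-05) that was also under it, and it was lower in every clone 2 library than in any WT library of the same treatment. Of the 12 tested adipogenesis genes that the study names in its text, which were chosen on these libraries and so are no independent evidence, 8 had a called higher response, among them the lysophospholipase D gene *Enpp2* (2.49).

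Lipid storage genes followed, with 9 of 19 tested members higher and 1 lower and a median difference of 1.15 (1.06 with group totals under 3 counts raised to 3). For *Plin2*, values were 193, 218 and 199.8 CPM in uninduced WT cells, 128, 132 and 132 CPM in stimulated WT cells, 333, 339.7 and 327 CPM in uninduced clone 2 and 681, 690.2 and 674 CPM in stimulated clone 2. *Plin2* encodes the perilipin that coats lipid droplets in most cells. It rose in clone 2 and its response in WT cells was -0.64, a difference of 1.67 (SE 0.066, adjusted p = 1.94e-14). In WT cells *Plin4* read 47.7, 35.96 and 42.8 CPM uninduced and 0.0977, 0.0863 and 0.181 CPM stimulated, against 105, 104 and 114 CPM and 11.2, 9.48 and 9.29 CPM in clone 2. *Plin4*, a perilipin of newly forming droplets, fell in both genotypes, to 8 counts over the stimulated WT libraries, and it fell less in clone 2 (4.95). *Dgat2*, an enzyme of the last step of triglyceride synthesis, had 40.001 ± 4.41 and 14.7 ± 0.925 CPM in WT cells and 88.5 ± 3.15 and 106 ± 5.36 CPM in clone 2 and a difference of 1.71 (SE 0.11, adjusted p = 4.79e-11). *Lpl*, the lipase that releases fatty acids from lipoproteins, had 31.2 ± 2.86 and 3.97 ± 0.382 CPM in WT cells and 5.56 ± 0.842 and 3.14 ± 0.641 CPM in clone 2 and a difference of 2.15 (adjusted p = 1.9e-07), with lower levels in clone 2 than in WT before stimulation. Adipocyte products stayed low. *Fabp4*, a fatty acid carrier of fat cells, had 1.90, 0.518 and 0.898 CPM uninduced and 0.293, 0.561 and 1.04 CPM stimulated in WT libraries and 1.27, 1.10 and 1.16 and 3.92, 3.46 and 2.099 CPM in clone 2. The WT groups overlapped and the clone 2 groups did not, with a difference of 2.19 (adjusted p = 0.0139). *Adipoq*, which encodes adiponectin, had 42 and 0 counts over the uninduced and stimulated WT libraries and 82 and 6 over those of clone 2, and was not called (adjusted p = 0.211). *Plin1*, the perilipin of mature fat cells, did not pass the filter on low counts, with 9, 0, 5 and 31 counts in the same order.

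Metabolic genes next to storage moved singly. Of 29 fatty acid oxidation genes 2 were called higher (6.90% called, against 7.92% of all genes), and the median difference was 0.30. *Pdk4* had 129, 137 and 139 CPM in the uninduced and 934, 911 and 940.5 CPM in the stimulated WT libraries, and 13.2, 10.3 and 13.5 CPM uninduced and 478, 483 and 527 CPM stimulated in clone 2. *Pdk4*, a kinase that turns pyruvate dehydrogenase off, is induced by glucocorticoids and fatty acids. It rose in both genotypes, from a lower level in clone 2 than in WT, and its difference was 2.55 (SE 0.093, adjusted p = 8.05e-15). *Ech1*, an isomerase of fatty acid oxidation, fell in WT cells and had a difference of 1.23 (adjusted p = 5.25e-10). Of 31 sterol and fatty acid synthesis genes 2 were called higher and 2 lower (12.9% called, against 7.92% of all genes). The lower calls numbered 0 without stimulated clone 2 replicate 3 and 1 or 2 in the other fits without 1 library. *Scd1*, the desaturase that makes oleate, rose in clone 2 from 240.5 ± 8.54 to 1474 ± 78.1 CPM and went from 196 ± 8.28 to 284 ± 5.61 CPM in WT cells, a difference of 2.08 (SE 0.069, adjusted p = 8.52e-16). *Elovl6*, a fatty acid elongase, fell in WT cells (-1.84) and by less, under the fold threshold, in clone 2 (-0.72), a difference of 1.12. *Fdps*, an enzyme of sterol synthesis, had a difference of -1.71 and shares 26.7% of its exon length with another gene on its strand. Among 11 cholesterol efflux genes *Abca1*, the transporter that loads cholesterol onto apolipoproteins, rose in clone 2 from 8.81 ± 1.77 to 84.8 ± 12.5 CPM while WT cells had 31.6 ± 4.50 and 37.01 ± 0.927 CPM, a difference of 2.99 (SE 0.19, adjusted p = 1.45e-09), and *Scarb1* had a lower response (-1.24).

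MAP kinase feedback genes also gained, and growth factor genes went both ways. Of 22 tested feedback genes and ETS factors 10 were called higher and 1 lower, with a median difference of 0.81, and 13 rose in clone 2 against 3 in WT cells. The 1 lower call was not made in every fit that left out a library. In WT cells *Dusp5* read 21.1, 24.2 and 28.8 CPM uninduced and 11.8, 13.6 and 11.3 CPM stimulated, against 7.65, 7.48 and 7.58 CPM and 48.1, 51.2 and 52.9 CPM in clone 2. *Dusp5* encodes a nuclear phosphatase of ERK. It fell in WT cells and rose in clone 2, the groups did not overlap in either genotype, and the difference was 3.76 (SE 0.16, adjusted p = 3.88e-14). Levels of *Egr3* were 47.3, 57.0 and 57.3 CPM in uninduced and 33.1, 37.97 and 37.3 CPM in stimulated WT libraries, and 28.1, 23.2 and 21.7 CPM and 169, 185 and 192 CPM in those of clone 2. *Egr3*, an immediate early transcription factor, rose in clone 2 alone, with a difference of 3.46 (SE 0.13, adjusted p = 1.2e-13). *Dusp4* (2.31) and *Etv1* (2.70) completed the 4 largest, and *Etv1* fell in WT cells and rose in clone 2. The list of PDGF, FGF, VEGF and EGF ligands and receptors also held genes of other families, such as *Clcf1*, *Kitl* and *Gdnf*. Of its 35 tested members 5 were higher and 6 lower. *Clcf1*, a cytokine of the interleukin 6 family, went from 5.62 ± 0.335 to 36.9 ± 2.47 CPM in clone 2 and from 11.9 ± 0.883 to 15.3 ± 1.90 CPM in WT cells (difference 2.35, adjusted p = 1.44e-10). *Kitl*, the ligand of the KIT receptor, fell in WT cells from 293 ± 22.2 to 56.9 ± 2.65 CPM and had 274 ± 11.01 and 224 ± 22.9 CPM in clone 2 (difference 2.07, adjusted p = 5.76e-13). In the other direction, *Fgf18* rose in WT cells from 3.16 ± 0.269 to 27.9 ± 2.27 CPM and had 10 and 1 counts over the uninduced and stimulated clone 2 libraries, and *Gdnf*, a neurotrophic factor, rose in WT cells alone (difference -2.55).

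Inflammatory signalling genes were higher as well. Of 42 tested NF-κB pathway, cytokine and chemokine genes 13 were called higher, and the median difference was 0.68. For *Lif*, values were 0.922, 0.414 and 1.01 CPM in uninduced WT cells, 8.11, 8.72 and 7.01 CPM in stimulated WT cells, 0.445, 0.220 and 0.116 CPM in uninduced clone 2 and 45.7, 46.6 and 45.2 CPM in stimulated clone 2. *Lif* encodes leukaemia inhibitory factor, a cytokine that acts through STAT3. It rose in both genotypes from at most 1.01 CPM, further in clone 2, with a difference of 3.87 (SE 0.40, adjusted p = 1.12e-07). In WT cells *Il6* read 1.67, 1.502 and 1.80 CPM uninduced and 11.3, 12.2 and 9.36 CPM stimulated, against 1.38, 0.704 and 1.27 CPM and 36.4, 37.4 and 40.5 CPM in clone 2. *Il6* followed with a difference of 2.32 (SE 0.27, adjusted p = 4.63e-07). The chemokine genes *Cx3cl1* and *Ccl2* fell in WT cells and were not called in clone 2. *Cx3cl1* had 363 ± 18.3 and 138 ± 11.6 CPM in WT cells and 75.2 ± 1.28 and 147 ± 12.3 CPM in clone 2 (difference 2.37, adjusted p = 1.07e-14), and *Ccl2* had 18.1 ± 3.48 and 5.56 ± 0.866 CPM in WT cells and 23.4 ± 0.322 and 23.3 ± 0.935 CPM in clone 2 (difference 1.71, adjusted p = 1.37e-07). *Nfkbia*, the inhibitor that NF-κB induces, was among the other called members. *Il11*, a fibrogenic cytokine that TGF-β1 induces, rose in both genotypes, from 0.582 ± 0.203 to 9.51 ± 2.33 CPM in WT cells and from 0.151 ± 0.0732 to 1.07 ± 0.580 CPM in clone 2, and its difference of -1.15 (adjusted p = 0.252) was not called.

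Acute phase and complement genes had 9 of 19 tested members higher and 2 lower, with a median difference of 1.60. *Serpina3n* had 5.48, 6.84 and 6.85 CPM in the uninduced and 5.22, 4.14 and 5.83 CPM in the stimulated WT libraries, and 29.0, 22.04 and 27.2 CPM uninduced and 847, 833 and 776 CPM stimulated in clone 2. *Serpina3n* (ENSMUSG00000021091, chromosome 12 of GRCm38 from 104406729 to 104414329), a secreted protease inhibitor, had the largest gain among genes at 5 CPM or more that stayed called whichever library was left out, 5.31 (SE 0.18, adjusted p = 4.39e-13). The WT groups overlapped, and the stimulated clone 2 libraries exceeded all others. Levels of *Hp* were 62.6, 52.8 and 50.6 CPM in uninduced and 12.2, 12.6 and 12.8 CPM in stimulated WT libraries, and 108, 99.2 and 111 CPM and 914, 829 and 806 CPM in those of clone 2. *Hp* encodes haptoglobin, the haemoglobin-binding protein of plasma, which fat cells also make. It fell in WT cells, rose in clone 2 and had a difference of 5.14 (SE 0.11, adjusted p = 2.58e-18). *Serpina3g* turned in the same way (-1.55 in WT cells and 1.34 in clone 2). *C3*, *C1ra* and *C1s1* were also called higher. *Cd55*, which protects cells from complement, rose in WT cells from 11 to 675 counts over 3 libraries and had 4 and 0 in clone 2. Interferon-stimulated and antigen presentation genes went down in both genotypes, 29 of 41 in WT cells and 27 in clone 2, and 7 had a higher and 4 a lower response in clone 2. The 4 lower calls were not stable: 0 to 3 were left in the fits without 1 library, with 2 without stimulated WT replicate 2, uninduced clone 2 replicate 1 or stimulated clone 2 replicate 1, 1 without stimulated WT replicate 3 and 0 without stimulated clone 2 replicate 3. *Ifi204*, a DNA sensor, fell in WT cells from 23.4 ± 2.53 to 9.77 ± 1.49 CPM and rose in clone 2 from 34.3 ± 0.489 to 85.8 ± 2.31 CPM. *Ifi203* fell less (2.72), the GTPase *Iigp1* fell in WT cells alone (3.65), and *Psmb9*, an immunoproteasome subunit, ended at 0 counts in stimulated clone 2 libraries, at least 69.2-fold lower than before stimulation at a floor of 3 counts over the group.

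Antioxidant genes gained response too. Of 34 tested NRF2 targets and glutathione genes 11 were called higher, with a median difference of 0.53, and 9 fell in WT cells against 6 in clone 2, where 8 rose. For *Nqo1*, values were 503, 542 and 489.8 CPM in uninduced WT cells, 313, 286 and 276 CPM in stimulated WT cells, 247, 247 and 213 CPM in uninduced clone 2 and 813, 799 and 804 CPM in stimulated clone 2. *Nqo1*, a quinone reductase and standard NRF2 target, started lower in clone 2 and ended higher, with a difference of 2.58 (SE 0.083, adjusted p = 8.52e-16). *Srxn1*, which repairs oxidized peroxiredoxins, had 140.4 ± 10.3 and 105 ± 4.17 CPM in WT cells and 67.5 ± 1.56 and 215 ± 12.1 CPM in clone 2 and a difference of 2.09 (SE 0.082, adjusted p = 1.64e-14). *Osgin1* (2.74) and *Mgst1* (2.56), a membrane glutathione transferase, fell in WT cells alone, and *Osgin1* rose in clone 2. Of 22 p53 targets 6 were called higher. *Dram1*, a regulator of autophagy, rose in clone 2 from 19.7 ± 0.656 to 69.2 ± 5.58 CPM and had 35.8 ± 1.40 and 33.001 ± 0.602 CPM in WT cells, and *Trp53inp1* and *Btg2* fell in WT cells alone (differences 1.82 and 1.58). *Ephx1* fell in both genotypes, under the fold threshold in clone 2 (difference 1.49). Of 30 glycolysis and hypoxia genes 6 were called higher, and 13 rose in clone 2 against 5 in WT cells. *Slc16a1*, a lactate transporter, rose in clone 2 from 37.7 ± 1.06 to 235 ± 19.5 CPM (difference 2.09, adjusted p = 3.95e-13), and *Slc2a1*, the glucose transporter GLUT1, rose there from 79.4 ± 6.50 to 263 ± 3.21 CPM and was not called in WT cells (difference 2.02, adjusted p = 8.05e-15). *Ndrg1* (1.66) and the carbonic anhydrase *Car9* (2.19, 4 counts over the stimulated WT libraries) fell in both genotypes, less in clone 2.

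Contractile and actin cytoskeleton genes lost response in clone 2. Of 35 tested members 12 were called lower, with a median difference of -0.84 (-0.80 with group totals under 3 counts raised to 3), and 13 rose in WT cells against 2 in clone 2, where 5 fell. *Acta2* had 251, 288 and 271 CPM in the uninduced and 1992, 2130.4 and 1985 CPM in the stimulated WT libraries, and 194, 198 and 185 CPM uninduced and 336, 337 and 296 CPM stimulated in clone 2. *Acta2* (ENSMUSG00000035783, chromosome 19 of GRCm38 from 34241090 to 34255336) encodes α-smooth muscle actin, the defining protein of myofibroblasts. The fold response was 7.54 in WT cells and the groups did not overlap, whereas the response in clone 2 (0.75) was under the fold threshold although its groups did not overlap. The difference was -2.17 (SE 0.080, adjusted p = 7.69e-15). In WT cells *Actn1* read 259, 236 and 231 CPM uninduced and 921, 943 and 855 CPM stimulated, against 431, 419 and 449 CPM and 559.7, 564 and 514 CPM in clone 2. *Actn1*, the α-actinin that crosslinks actin filaments, had a difference of -1.57 (SE 0.075, adjusted p = 4.19e-13). *Tpm1*, a tropomyosin, fell past the fold threshold in clone 2 and by less in WT cells (519.7 ± 30.9 and 402 ± 8.36 CPM in WT cells and 444 ± 2.83 and 128 ± 10.6 CPM in clone 2), with a difference of -1.42 (adjusted p = 3.54e-12). *Actg2*, the enteric smooth muscle actin, rose in WT cells from 4.52 ± 1.96 to 22.2 ± 1.73 CPM and stayed at or under 0.440 CPM in clone 2. The cytoplasmic actin genes moved too. *Actg1* had 1334 ± 176 and 2863 ± 26.6 CPM in WT cells and 1643 ± 101 and 1605 ± 94.6 CPM in clone 2 and a difference of -1.13 (adjusted p = 5.7e-07), and *Actb*, often used as a reference gene, had 1613 ± 67.2 and 3314 ± 141 CPM in WT cells and 1399 ± 63.4 and 1556 ± 71.7 CPM in clone 2 and a difference of -0.89 (adjusted p = 8.7e-10), under the fold threshold. *Tagln*, another smooth muscle gene, is no measure here: it stood at or under 0.881 CPM in all 12 libraries, 67.9% of its exon length is shared with a gene on the other strand, and its difference of 2.07 (adjusted p = 0.140) was not called. Of the 13 tested EMT genes that the study names, chosen on these libraries and so no independent evidence, 5 had a called lower response.

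SRF binds a short AT-rich element, the CArG box, and 3 of the contractile genes with a lower response carry it close to their start. RefSeq windows of GRCm38.p6 covered 9951 of the tested genes, and the 250 bases before each start site were searched on both strands for 10 motifs. The CArG box (CC, then 6 bases of A or T, then GG) was in 4.15% of the 313 windows of genes with a lower response, in 1.02% of the 488 windows of genes with a higher one and in 1.15% of all 9951. Windows of *Myl9*, *Cnn2* and *Actg1* are shown because these contractile genes lost response and carry the box, and that of *Dusp5* because it gained response and carries 2 boxes that adjoin. Capitals mark the CArG boxes, and each run reads 5′ to 3′ up to the base before the start site. They lie at chr2:156775214-156775463, plus strand, at chr10:79988350-79988599, plus strand, at chr11:120348496-120348745, minus strand, and at chr19:53528895-53529144, plus strand.
Myl9: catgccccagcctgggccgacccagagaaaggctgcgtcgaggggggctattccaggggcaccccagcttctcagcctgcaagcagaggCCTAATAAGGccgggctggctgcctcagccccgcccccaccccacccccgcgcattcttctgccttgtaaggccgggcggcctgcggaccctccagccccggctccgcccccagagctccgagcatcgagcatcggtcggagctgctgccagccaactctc
Cnn2: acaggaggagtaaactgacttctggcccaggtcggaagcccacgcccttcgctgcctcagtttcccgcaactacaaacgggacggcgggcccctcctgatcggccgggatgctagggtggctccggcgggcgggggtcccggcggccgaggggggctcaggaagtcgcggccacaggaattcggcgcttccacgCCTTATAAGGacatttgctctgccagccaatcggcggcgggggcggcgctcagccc
Actg1: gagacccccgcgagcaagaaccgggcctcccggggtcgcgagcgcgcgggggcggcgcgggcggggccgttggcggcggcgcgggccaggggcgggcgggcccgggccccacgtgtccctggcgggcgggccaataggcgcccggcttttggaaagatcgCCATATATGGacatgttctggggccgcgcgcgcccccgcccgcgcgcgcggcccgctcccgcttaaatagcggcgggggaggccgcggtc
Dusp5: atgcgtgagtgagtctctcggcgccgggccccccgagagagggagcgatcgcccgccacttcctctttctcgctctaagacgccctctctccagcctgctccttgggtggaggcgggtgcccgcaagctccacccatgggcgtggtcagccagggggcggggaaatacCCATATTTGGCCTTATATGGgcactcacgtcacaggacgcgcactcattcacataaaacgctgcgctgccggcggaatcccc

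The boxes begin 161, 56 and 90 bases before the start sites of *Myl9*, *Cnn2* and *Actg1*, and 82 and 72 bases before that of *Dusp5*. Levels of *Cnn2* were 197, 213 and 212 CPM in uninduced and 550.1, 566 and 544 CPM in stimulated WT libraries, and 143, 141 and 146 CPM and 164, 164 and 147 CPM in those of clone 2. *Cnn2* encodes calponin 2, an actin-binding protein, and its difference was -1.28 (SE 0.071, adjusted p = 4.62e-12). In WT cells *Myl9* read 38.5, 36.4 and 43.6 CPM uninduced and 103, 115 and 103 CPM stimulated, against 1.001, 0.352 and 0.694 CPM and 0.0560, 0.196 and 0.0600 CPM in clone 2. *Myl9*, a regulatory light chain of smooth muscle myosin, was at or under 1.001 CPM in every clone 2 library. It rose in WT cells and fell in clone 2, with a difference of -4.28 (SE 0.52, adjusted p = 1.29e-06), and clone 2 counts of 65 uninduced and 5 stimulated stand behind the latter. The other 10 genes of the 13 with a lower response and a box were *Slc25a23*, *Lama2*, *Ripor2*, *Lurap1l*, *Stbd1*, *Sinhcaf*, *Selenbp1*, *Lmcd1*, *Pdgfc* and *Tigar*, of which *Slc25a23*, *Selenbp1*, *Pdgfc* and *Tigar* were not called in every fit that left out a library. Genes with a higher response and a box were *Dusp5*, *Cbr2*, *Zfp36*, *Dnm3os* and *Cited1*. The AP-1 site (TGANTCA) was in 7.99% of the windows with a higher and 7.03% of those with a lower response, against 4.31% of all. The C/EBP site (TTGCNNAA) was in 10.5%, 7.35% and 7.28%, the forkhead site (TGTTTAC) in 2.87%, 2.24% and 2.07%, and the cAMP response element (TGACGTCA) in 1.23%, 2.88% and 2.85%, in that order. Shares for the NF-κB site were 11.1%, 7.35% and 8.60%, for the antioxidant response element (TGACNNNGC) 11.7%, 13.4% and 12.0%, for the E2F site (TTTCCCGC or TTTGGCGC) 1.43%, 3.51% and 2.58%, for the TATA box (TATAAA) 9.43%, 9.27% and 6.22% and for the short cAMP half-element (TGACG, which the full element contains) 22.3%, 22.7% and 27.6%. A match is a run of letters and says nothing of binding. Genes without one in this window may carry it elsewhere, or may carry a variant here that a search for exact letters misses.

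**Figure D4:**
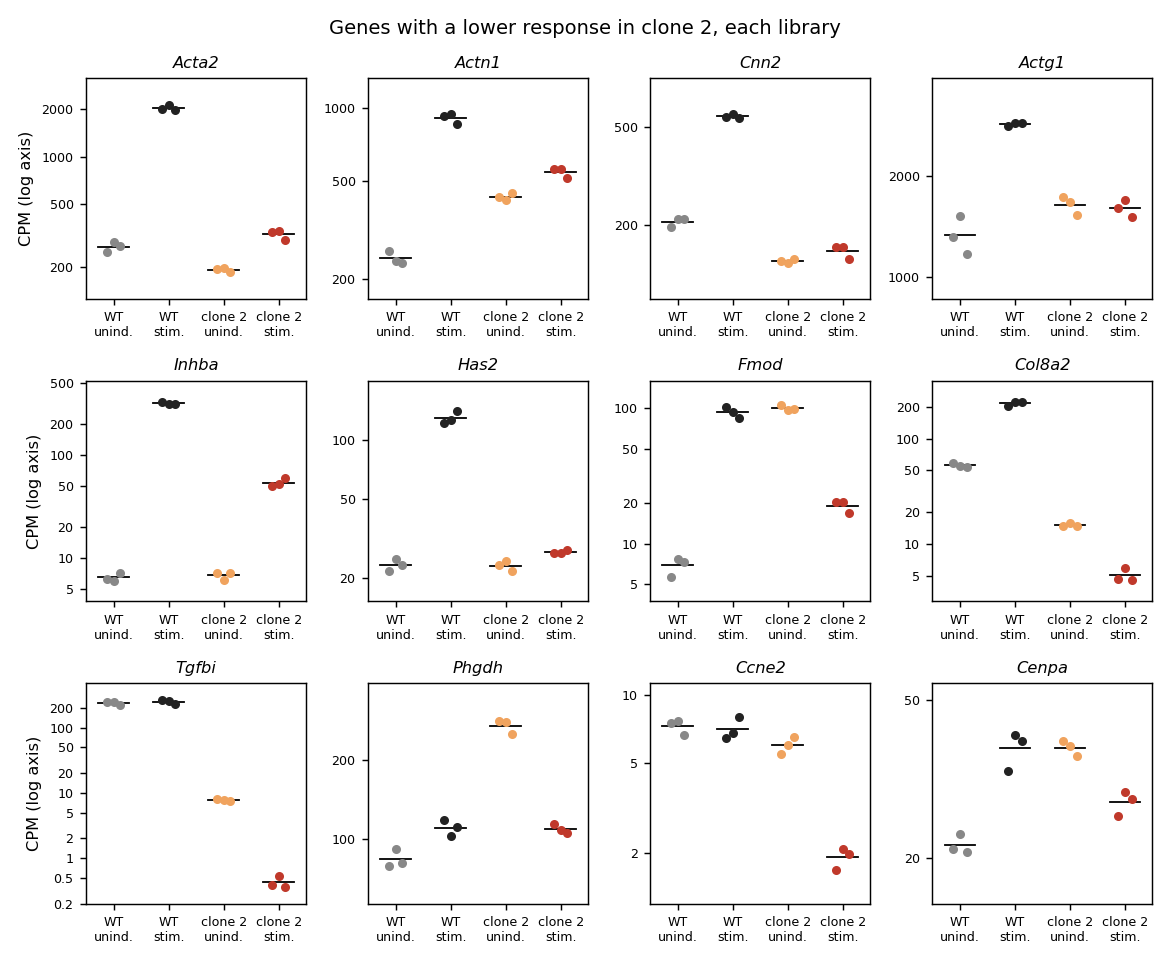
CPM of 12 genes with a called lower response in clone 2, in each of the 3 libraries of uninduced WT, stimulated WT, uninduced clone 2 and stimulated clone 2 cells (log axis; points are libraries and horizontal lines group means). *Acta2*, *Actn1*, *Cnn2*, *Actg1*, *Inhba* and *Has2* climb from uninduced to stimulated WT libraries by more than they do in clone 2, and *Fmod*, *Col8a2*, *Tgfbi*, *Phgdh* and *Ccne2* are lower in stimulated than in uninduced clone 2 libraries.

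TGF-β targets rose as often in clone 2 as in WT cells. Of 31 tested SMAD-dependent targets and regulators 15 rose in each genotype, 2 had a higher and 4 a lower response in clone 2 (19.4% called, against 7.92% of all genes), and the median difference was 0.11. Levels of *Inhba* were 6.23, 6.01 and 7.18 CPM in uninduced and 331, 313 and 311 CPM in stimulated WT libraries, and 7.12, 6.11 and 7.11 CPM and 50.04, 52.2 and 59.3 CPM in those of clone 2. *Inhba* encodes the activin A subunit. It rose in both genotypes and less in clone 2, with a difference of -2.63 (SE 0.12, adjusted p = 2.66e-13). *Has2* had 21.7, 24.9 and 23.3 CPM in the uninduced and 122, 126 and 139.6 CPM in the stimulated WT libraries, and 23.3, 24.2 and 21.7 CPM uninduced and 26.8, 26.6 and 27.6 CPM stimulated in clone 2. *Has2*, a hyaluronan synthase, rose in WT cells and had a response of 0.22 in clone 2, with a difference of -2.25 (SE 0.11, adjusted p = 2.79e-13). In WT cells *Tgfbi* read 253, 248 and 228 CPM uninduced and 266, 254 and 231 CPM stimulated, against 8.21, 7.79 and 7.402 CPM and 0.392, 0.523 and 0.360 CPM in clone 2. *Tgfbi*, a secreted adhesion protein named for its induction by TGF-β, did not change in level beyond the fold threshold in WT cells (0.04) and fell in clone 2 (-4.21), from a level that was already far lower than in WT. *Fstl3*, an activin antagonist, rose in WT cells alone (difference -3.18, adjusted p = 0.0108), and 47.3% of its exon length is shared with a gene on the other strand. *Sphk1* was among the members called higher. In the BMP list *Grem1*, a secreted BMP antagonist, rose in WT cells from 16.7 ± 0.572 to 186 ± 1.70 CPM and was at or under 0.405 CPM in all clone 2 libraries, while *Acvr1b*, an activin receptor, rose in clone 2 alone (1.64).

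Matrix genes split. The main fibrillar collagen and fibronectin genes rose in both genotypes. *Col1a1* rose from 9300.5 ± 313 to 28866 ± 489 CPM in WT cells and from 14793 ± 377 to 40836 ± 2609 CPM in clone 2, a difference of -0.17 (adjusted p = 0.0352). Differences under the fold threshold were also found for *Col3a1* (0.17) and *Fn1* (-0.41), as was that of *Aebp1*, a collagen-binding carboxypeptidase-like protein (-0.54), which rose past the threshold in WT cells alone. Among 33 tested collagen chains 5 had a higher (3 without uninduced clone 2 replicate 2 or without stimulated clone 2 replicate 1) and 6 a lower response, and the median difference was -0.02. For *Col7a1*, values were 5.996, 5.70 and 3.82 CPM in uninduced WT cells, 161, 171 and 167 CPM in stimulated WT cells, 0.312, 0.968 and 0.520 CPM in uninduced clone 2 and 1.51, 1.503 and 0.899 CPM in stimulated clone 2. *Col7a1*, the anchoring fibril collagen, rose in both genotypes, by 5.04 in WT cells and 1.28 in clone 2, whose levels reached at most 1.51 CPM. *Col8a2* had 58.7, 55.4 and 53.8 CPM in the uninduced and 207, 225 and 224 CPM in the stimulated WT libraries, and 14.9, 15.7 and 14.7 CPM uninduced and 4.59, 5.95 and 4.50 CPM stimulated in clone 2. *Col8a2*, a short-chain collagen, rose in WT cells and fell in clone 2, with a difference of -3.57 (SE 0.12, adjusted p = 6.92e-16). *Col9a2* fell in both, to 1 count over the stimulated clone 2 libraries, and *Col10a1* fell in WT cells and was at or under 0.180 CPM in clone 2 throughout.

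Of 48 elastic fibre, matricellular, laminin and proteoglycan genes 5 were higher and 11 lower, and the median difference was -0.35 (-0.14 with group totals under 3 counts raised to 3). Levels of *Fmod* were 5.65, 7.72 and 7.33 CPM in uninduced and 101, 93.7 and 83.9 CPM in stimulated WT libraries, and 105, 97.1 and 97.7 CPM and 20.3, 20.2 and 16.8 CPM in those of clone 2. *Fmod* (ENSMUSG00000041559, chromosome 1 of GRCm38 from 134037254 to 134048277) encodes fibromodulin, a leucine-rich proteoglycan that binds collagen fibrils. Uninduced clone 2 cells stood at about the level of stimulated WT cells, and stimulation moved the genotypes in opposite directions, with a difference of -6.13 (SE 0.14, adjusted p = 2.78e-18). In WT cells *Thbs2* read 26.3, 19.8 and 21.8 CPM uninduced and 197, 195 and 204.9 CPM stimulated, against 1.18, 0.880 and 0.925 CPM and 0, 0.0654 and 0 CPM in clone 2. *Thbs2* encodes thrombospondin 2, an antiangiogenic matricellular protein. It rose in WT cells and went from 89 counts to 1 over the clone 2 libraries, a response ratio of 0.0192 (exact 95% interval 0.000480 to 0.109) that covers counting error only, and the fitted difference of -8.49 rests on that count. *Lum*, the proteoglycan lumican, fell in both genotypes and further in clone 2 (104 ± 14.9 and 10.4 ± 1.08 CPM in WT cells and 46.3 ± 0.664 and 0.537 ± 0.184 CPM in clone 2, difference -3.08, adjusted p = 4.1e-09). *Lama2*, the laminin α2 chain, fell further in clone 2 (-4.11) than in WT cells, where its response was under the fold threshold (-0.91), and the fibulin gene *Fbln1* fell in clone 2 alone (difference -1.72). The elastin gene *Eln* was lower and the versican gene *Vcan* higher among the other calls. Among 25 collagen processing enzymes 2 were called lower (8.0% called, against 7.92% of all genes), *Pcolce* (-1.02) and *Pcolce2* (-1.497). Both help to cleave procollagen and fell past the fold threshold in clone 2 and by 0.25 and 0.23 on the log2 scale in WT cells. Among 33 matrix proteases and inhibitors 4 were higher and 5 lower, and the plasminogen activator genes *Plau* (12.3 ± 1.27 and 16.03 ± 1.81 CPM in WT cells and 5.54 ± 0.361 and 1.73 ± 0.368 CPM in clone 2, difference -2.05, adjusted p = 4.07e-07) and *Plat* (16.7 ± 1.78 and 123 ± 4.33 CPM in WT cells and 5.21 ± 0.727 and 15.04 ± 1.75 CPM in clone 2, difference -1.31, adjusted p = 5.09e-07) were among the latter, with *Mmp11* (1.43) higher and *Mmp15* (-1.43) lower. Of 25 integrins and cadherins, *Itga6* (1.81), *Itga8* (2.198) and *Itga9* (4.95, 1 count uninduced in clone 2) were higher. *Itga11*, a collagen-binding integrin, rose in WT cells from 8.70 ± 1.81 to 204.2 ± 14.3 CPM and had 0.254 ± 0.0198 and 0.327 ± 0.276 CPM in clone 2 (difference -4.14, adjusted p = 6.24e-05).

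Proliferation and growth genes had lower responses in clone 2, by smaller amounts, which does not mean lower levels. *Cenpe*, for example, had 15.8 CPM in stimulated clone 2 and 9.31 CPM in stimulated WT cells. Of 42 DNA replication and S phase genes 12 were called lower, with a median difference of -0.57. Testing against the fold threshold itself (glmTreat) left 1 called. *Ccne2*, the S phase cyclin E2, had 7.55, 7.67 and 6.66 CPM uninduced and 6.45, 6.77 and 8.004 CPM stimulated in WT libraries and 5.47, 6.03 and 6.53 and 1.68, 2.09 and 1.98 CPM in clone 2. The WT groups overlapped, the clone 2 groups did not, and the difference was -1.60 (SE 0.25, adjusted p = 2.84e-05). *Cdc6* (-1.38), a loader of the replicative helicase, *E2f8* (-1.67), an S phase repressor, and *Ung* (-2.04), a uracil glycosylase, were the other named members, and *Mcm2*, *Mcm3* and *Mcm5* were also called. Of 42 mitosis genes 6 were called lower (3 without uninduced clone 2 replicate 3 or without stimulated clone 2 replicate 2) and the median difference was -0.49. Testing against the fold threshold left 1 of these called too. *Cenpa*, the centromeric histone, went from 21.6 ± 1.19 to 37.8 ± 4.11 CPM in WT cells and from 37.8 ± 1.64 to 27.7 ± 1.93 CPM in clone 2, neither called, with a difference of -1.27 (adjusted p = 5.66e-08). *Kif20a* (-1.43), *Hmmr* (-1.36) and *Cenpe* (-1.04) were called as well, and uninduced clone 2 stood above uninduced WT in each. Of 34 MYC and ribosome biogenesis genes 19 rose in WT cells and 3 in clone 2, yet 2 differences passed the fold threshold, *Mrto4* (-1.46) and *Nolc1* (-1.11). The share called was 5.88%, against 7.92% of all genes, and the median difference was -0.64. Without uninduced WT replicate 1, 5 passed, and without uninduced WT replicate 2 or 3 or uninduced clone 2 replicate 2, 4 passed. Of 30 integrated stress response and amino acid supply genes 2 were higher and 6 lower, with a median of -0.67. For *Phgdh*, values were 78.4, 91.4 and 81.2 CPM in uninduced WT cells, 118, 102 and 110.3 CPM in stimulated WT cells, 281, 277 and 249.3 CPM in uninduced clone 2 and 114, 108 and 105 CPM in stimulated clone 2. *Phgdh*, the first enzyme of serine synthesis, fell in clone 2 from a level 3.22-fold that of uninduced WT cells to that of stimulated WT cells, with a difference of -1.70 (SE 0.092, adjusted p = 3.62e-12). *Chac1*, a glutathione-degrading target of the stress response, rose in WT cells (2.56) and by less, under the fold threshold, in clone 2 (0.83), a difference of -1.73. The amino acid transporters *Slc7a11* (2.30) and *Slc1a5* (1.44) had the higher responses.

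Among Wnt genes 2 of 32 were higher and 7 lower, and the 7 comprised the secreted antagonists *Sfrp2*, *Frzb* and *Dkk3*, the agonists *Rspo2* (-1.96) and *Rspo3* (-2.01), the ligand gene *Wnt5b* (-1.18) and *Wisp1* (-1.33), while the antagonist *Sfrp1* was higher (1.45). *Sfrp2* had 228, 255 and 245 CPM in uninduced and 36.5, 39.9 and 36.2 CPM in stimulated WT libraries. In clone 2 it had 1.16, 1.19 and 1.16 CPM uninduced and no count after stimulation, at least 19.4-fold lower at the floor of 3 counts. *Frzb* (144 ± 11.97 and 50.3 ± 3.17 CPM in WT cells and 0.807 ± 0.184 and 0.0604 ± 0.00471 CPM in clone 2; 3 counts over the stimulated clone 2 libraries) fell in both genotypes, and *Dkk3* (-3.76) fell in clone 2 to 1 count. *Wisp2*, a matricellular protein that Wnt signals induce, rose in clone 2 from 23.5 ± 2.04 to 127 ± 8.08 CPM and had 157 ± 8.50 and 202 ± 6.63 CPM in WT cells (difference 2.08, adjusted p = 6.46e-14). In the IGF and insulin list 3 of 19 were higher and 4 lower. *Irs2*, an adaptor of the insulin receptor, rose in clone 2 (2.46) and by less, under the fold threshold, in WT cells (0.45). *Htra1*, a secreted protease that cleaves matrix and growth factor proteins, rose in WT cells and fell in clone 2, *Pappa2*, which cleaves IGF binding proteins, fell in clone 2 alone (-2.08), and the insulin receptor inhibitor *Grb14* rose less (-1.46). In the bone and cartilage list of 21, 3 were higher and 5 lower. *Scx* (3.19 ± 1.42 and 32.04 ± 2.03 CPM in WT cells and 12.6 ± 0.475 and 14.7 ± 2.82 CPM in clone 2) and *Tnmd* (-2.44), which mark tendon, were lower, as was *Prg4*, the joint lubricant lubricin (-1.56). The cartilage transcription factors *Sox5* (4.94) and *Sox6* (2.46) were higher, whereas the cartilage collagen genes *Col9a2* (-3.28) and *Col9a3* (-1.25) were lower.

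Core clock genes had 3 of 18 members higher, among them *Per2*, which fell in WT cells and rose in clone 2 (-1.09 in WT cells and 1.33 in clone 2), *Per3* (1.82) and *Nfil3* (1.31), and 2 lower, *Nr1d1* (-1.36) and *Rorb*, which had 0 and 109 counts over the uninduced and stimulated WT libraries and 61 and 87 over those of clone 2. Mesenchymal transcription factors (12.9% called, against 7.92% of all genes) had 3 of 31 higher, namely *Zeb2* (1.33), *Foxc2* (1.52) and *Foxf1* (1.03). The 1 lower was *Meox1*, whose fitted difference of -5.71 belongs to a gene at a mean of 0.933 CPM over the 12 libraries. YAP and TEAD genes (13.6% called) gave 2 of 22 higher, *Tead4* (2.06) and the tissue factor gene *F3* (1.37), and *Ajuba* (-1.27) lower. In prostaglandin genes (13 tested, 15.4% called) the prostacyclin synthase gene *Ptgis* was lower (-2.604) and *Ptgfr* just past the threshold (1.00). In the Hedgehog list (12 tested, 8.33% called against 7.92% of all genes) the receptor and target *Ptch1* was higher (2.33). *Ly6a* was the mesenchymal marker with a called difference (87.3 ± 3.41 and 9.43 ± 0.667 CPM in WT cells and 259 ± 11.7 and 182 ± 8.59 CPM in clone 2; 2.70). The remaining 4 lists held no call under edgeR's test. Of 30 cytosolic ribosomal proteins 4 had an unadjusted p below 0.05, of 35 oxidative phosphorylation and TCA cycle genes 22, all lower, of 24 endoplasmic reticulum chaperone and unfolded protein response genes 10, and of 15 Notch genes 12. DESeq2 called 1 of these genes, in the Notch list. Median differences of the 4 lists were -0.04, -0.23, -0.0042 and 0.39. Where a list above had calls in 1 direction alone, 0 to 6 members of it had an unadjusted p below 0.05 in the other direction and DESeq2 called at most 1 there. Among the genes named above, *Areg*, *Car9*, *Cenpe*, *Cited1*, *Col10a1*, *Fdps*, *Foxf1*, *Fstl3*, *Itga9*, *Mcm2*, *Pcolce*, *Pdgfc*, *Psmb9*, *Ptgfr*, *Selenbp1*, *Slc25a23* and *Tigar* lost the call in at least 1 fit without a library.

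The largest gains and losses among genes at 5 CPM or more that stayed called whichever library was left out lay partly outside these lists. The 10 largest rises were *Serpina3n*, *Hp*, *Plin4*, *Abca8a*, *Abca8b*, *Gcnt4*, *Cdo1*, *Lif*, *Gas7* and *Tmem176b*, from 5.31 down to 3.84. *Gas7* had 76.7, 72.0 and 75.7 CPM in the uninduced and 3.71, 5.13 and 4.30 CPM in the stimulated WT libraries, and 184, 178 and 192 CPM uninduced and 150.1, 155 and 164 CPM stimulated in clone 2. *Gas7*, a cytoskeletal protein of growth-arrested cells, fell in WT cells and was not called in clone 2, with a difference of 3.84 (SE 0.10, adjusted p = 3.17e-17). In WT cells *Cdo1* read 69.99, 62.9 and 67.9 CPM uninduced and 34.9, 32.4 and 33.6 CPM stimulated, against 4.90, 4.003 and 4.51 CPM and 32.9, 35.9 and 31.8 CPM in clone 2. *Cdo1*, the enzyme that opens cysteine catabolism to taurine, rose in clone 2 to the level that stimulated WT cells also had, from a lower start, with a difference of 3.88 (SE 0.12, adjusted p = 5.98e-16). *Tmem176b*, a membrane protein, had 3.995 ± 0.228 and 0.251 ± 0.178 CPM in WT cells and 268 ± 3.45 and 238 ± 3.07 CPM in clone 2, so its gain was the absence of a fall at a level far above WT. The neighbouring lipid transporter genes *Abca8a* and *Abca8b* fell in WT cells from 37.9 ± 4.04 and 34.8 ± 0.827 CPM to 0.166 ± 0.208 and 1.25 ± 0.346 CPM. In clone 2 *Abca8a* fell from 2.84 ± 0.551 to 0.317 ± 0.207 CPM and *Abca8b* had 10.4 ± 0.932 and 6.56 ± 0.0343 CPM. *Gcnt4*, a glycosyltransferase, rose in both genotypes, by 5.15 in clone 2 and 1.22 in WT cells.

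The 10 largest falls were *Thbs2*, *Gpr153*, *Fmod*, *Fgf18*, *Pianp*, *Ccdc8*, *Lrrc17*, *Sfrp2*, *Prokr1* and *Kctd12*, from -8.49 to -4.94 in the fit. Levels of *Lrrc17* were 147, 131 and 129 CPM in uninduced and 278, 281 and 286 CPM in stimulated WT libraries, and 51.8, 49.9 and 47.3 CPM and 3.69, 2.22 and 3.12 CPM in those of clone 2. *Lrrc17*, a secreted leucine-rich repeat protein, rose in WT cells and fell in clone 2, the groups did not overlap in either genotype, and the difference was -5.09 (SE 0.12, adjusted p = 3.85e-18). The other falls, *Fmod* apart, ended at 0 to 4 counts over the stimulated clone 2 libraries, and their fitted sizes depend on how such counts are moderated. *Pianp*, *Ccdc8* and *Sfrp2* had none, so that *Pianp* was at least 7.16-fold and *Ccdc8* at least 10.1-fold lower than before stimulation at the floor of 3 counts. *Kctd12*, with 778 counts uninduced and 1 stimulated, had a response ratio of 0.00219 (exact 95% interval 0.0000554 to 0.0122), and 62.8% of its exon length is shared with a gene on the other strand. *Prokr1*, a prokineticin receptor, had 277 and 1 counts and a ratio of 0.00615 (exact 95% interval 0.000155 to 0.0346). *Gpr153*, an orphan receptor, rose in WT cells from 23 to 1564 counts and had 11 and 4 in clone 2. Among all called genes, 99 had a group total of 3 counts or fewer, 36 of them 0.

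In 39 genes stimulation moved WT cells and clone 2 in opposite directions, each past the thresholds, and the difference was called. They comprised 28 that fell in WT cells and rose in clone 2 and 11 that rose in WT cells and fell in clone 2, and 26 of them were at 5 CPM or more and called whichever library was left out. At 5 CPM or more, the 5 largest turns by the smaller of the 2 responses were *Thbs2* (3.14 in WT cells and -5.35 in clone 2), *Fmod* (3.74 in WT cells and -2.39 in clone 2), *Hp* (-2.14 in WT cells and 3.000 in clone 2), *Col8a2* (1.97 in WT cells and -1.60 in clone 2) and *Htra1* (1.48 in WT cells and -1.67 in clone 2). *Htra1* levels in clone 2 were 1.202, 0.748 and 0.752 CPM uninduced and 0.0560, 0.654 and 0.240 CPM stimulated, against 27.2, 15.5 and 17.8 CPM and 57.4, 58.5 and 51.4 CPM in WT cells. Turns thus included matrix genes in 1 direction and the plasma protein gene *Hp*, the phosphatase *Dusp5*, the clock gene *Per2* and the glucocorticoid target *Tsc22d3* in the other.

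Clone 1, another FOXS1 KO line from a single cell, was given the same agents, with 3 libraries uninduced and 3 stimulated. In a model of all 18 libraries the response of clone 2 differed from that of clone 1 for 433 of 14317 genes (3.02%), with 212 higher (1.48%) and 221 lower (1.54%). Of the genes whose response was higher in clone 2 than in WT, 83 (12.3%) were also higher than in clone 1, which is 39.3% of the 211 genes with a higher response than clone 1 that were tested in both fits, and 33 were lower than in clone 1. Of those with a lower response than WT, 70 (16.4%) were also lower than in clone 1, or 32.3% of 217, and 18 were higher. Both comparisons use the same clone 2 libraries, so these overlaps are counts and not a measure of likeness. NF-κB and cytokine genes had 13 of 42 members higher in clone 2 than in clone 1, with a median of 0.69, and mitosis genes 10 of 42 lower, with a median of -0.80. Lipid storage genes had 7 of 19 lower than in clone 1, with a median of -0.95. Contractile genes had 1 of 34 higher and 1 lower and glucocorticoid genes 1 of 18 lower, with medians of 0.29 and -0.01. For side-by-side reading, in the same model the medians of clone 1 minus WT and clone 2 minus WT were -0.94 and -0.82 for contractile genes, 1.40 and 1.43 for glucocorticoid genes, 2.02 and 1.15 for lipid storage genes and -0.21 and 0.68 for NF-κB and cytokine genes. They share the WT libraries, and no correlation between them is given.

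Single genes with the largest differences in both comparisons were *Thbs2*, *Ccdc8*, *Tgfbi*, *Itga11* and *Manba*. *Tgfbi* responses were -4.21 in clone 2 and 0.04 in WT cells, clone 1 differed from WT by 0.67, and the difference between the clones was -4.91 (SE 1.10, adjusted p = 0.00183). *Itga11* differed from WT by -0.35 in clone 1 and from clone 1 by -3.78 in clone 2 (SE 1.03, adjusted p = 0.0220). The wide SEs of *Tgfbi* and *Itga11* leave the sizes of their differences between the clones imprecise. *Manba*, a lysosomal mannosidase, had 17.9 ± 0.764 and 6.83 ± 1.36 CPM in WT cells and 1.28 ± 0.0531 and 0.0400 ± 0.0692 CPM in clone 2 and differed between the clones by -3.35 (adjusted p = 0.000414). *Pparg* did not differ between the clones past the fold threshold (-0.85, adjusted p = 8.42e-06), while *Cebpa* had a lower response in clone 2 than in clone 1 (-1.24, adjusted p = 7.12e-11), as did *Fabp4* (-3.20, adjusted p = 1.36e-05). *Acta2* had a higher one (1.19, adjusted p = 5.73e-13), and its difference from WT was -3.34 in clone 1. *Ereg* (2.600), *Dusp5* (1.65) and *Il6* (1.34) rose more in clone 2 than in clone 1.

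**Figure D5:**
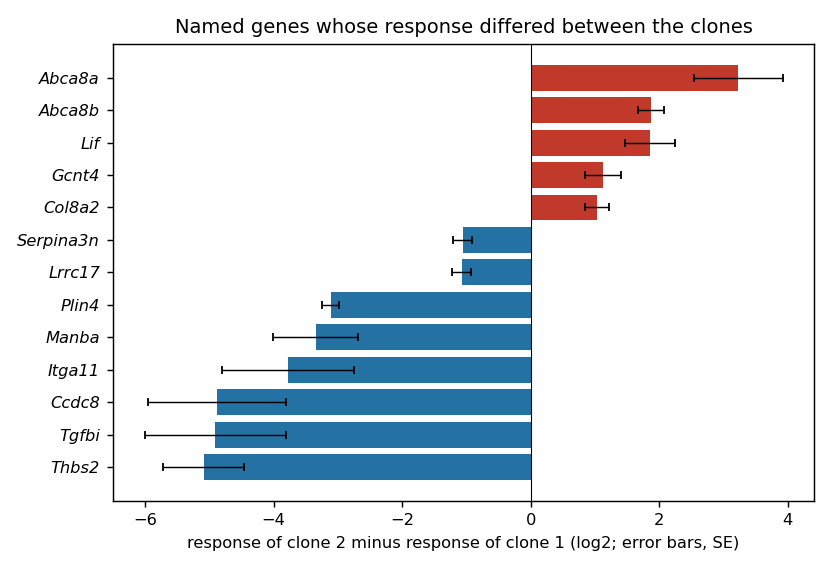
Difference between the response of clone 2 and the response of clone 1 (log2, error bars SE) for the 13 genes named for their size that were called in this test. *Thbs2*, *Tgfbi* and *Ccdc8* stand at -5.09, -4.91 and -4.88 and *Abca8a* at 3.23.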

How the data were processed

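Poly(A) RNA-seq libraries of 10T1/2 cells were aligned by the authors with HISAT2 to mm10 (GRCm38), and the authors deposited 1 table of read counts per gene for 54532 genes in 18 libraries, with no normalization. Which program counted the reads, with which annotation and whether by strand, is not given in the sources used here, so the handling of reads in overlapping genes is unknown. From these counts, 13919 genes passed edgeR's filterByExpr in the 12 libraries of WT and clone 2 (14317 in all 18). They were scaled by TMM and fitted with edgeR 4.0.16 (robust quasi-likelihood, R 4.3.3) in a model of the 4 groups, and a contrast was called where the p adjusted by Benjamini-Hochberg was under 0.05 and the log2 value exceeded 1 in size. Per-library values are CPM, that is, counts over the TMM-scaled library total. Totals of 15576685 to 42005596 counts set a floor of 3 counts over a group, or 0.0353 to 0.0602 CPM. Floors and intervals cover counting error only.

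The 39 gene lists, the comparison and the motifs were chosen with earlier results of these data known, and 7 further lists held cell markers (5) and genes named in the study text (2). Genes were named by rule: *Foxs1*, genes of the study's panels and text, the 10 largest gains and losses at 5 CPM or more that were called without any 1 library, the 5 largest turns at 5 CPM or more, up to 4 called members per list at 1 CPM or more, uncalled members with a defining role, and the 5 largest differences in both clone comparisons. Other genes named were picked after their values were seen, among them *Per1*, *Crem*, *Nr4a1*, *Areg*, *Ereg*, *Pdk4* and *Actb*, the genes with a CArG box, and those given as further members of a list. Gene names and coordinates are those of the deposited table, promoters are RefSeq windows of GRCm38.p6, and exon overlaps come from GENCODE M21. Of 102 gene names shared by several rows, each row was tested on its own. In 3 simulated data sets of 13554 genes for the difference between clone 2 and WT, 74.7%, 85.2% and 87.2% of genes changed by 1.5, 2 and 3 on the log2 scale were called, with 10 false calls in all. Simulated clone 2 cells had the WT means apart from the changes set after stimulation. In the data 2090 genes (15.0%) already differed between clone 2 and WT before stimulation. Recovery and false calls for such genes were not tested. Alternatives were DESeq2 1.42.0, its size factors, other filters, all 6 groups in 1 model, the replicate number as a block, other uses of the fold threshold and each library left out in turn. Some members of these lists are not reported by name here.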

Additional observations from a re-analysis of the deposited data

Results flagged for a closer look

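Responses that differed between groups under a test of the difference itself are gathered here. The response of clone 2 was higher than that of WT for 675 genes and lower for 427, and it was higher than that of clone 1 for 212 and lower for 221. Among the genes with the largest differences from WT, some also differed between the clones (log2 difference of the responses, clone 2 minus clone 1, edgeR's test in the model of 18 libraries). Higher in clone 2 were *Abca8a* (3.23), *Abca8b* (1.87), *Lif* (1.85), *Gcnt4* (1.13) and *Col8a2* (1.03), the last of which was lower than in WT. Lower in clone 2 were *Plin4* (-3.11) and *Serpina3n* (-1.06), both of which were higher than in WT, and *Lrrc17* (-1.08), *Manba* (-3.35), *Itga11* (-3.78), *Ccdc8* (-4.88), *Tgfbi* (-4.91) and *Thbs2* (-5.09). *Ccdc8*, *Thbs2* and *Manba* had 0, 1 and 2 counts over the 3 stimulated clone 2 libraries, so their fitted values depend on the prior count and are no bound. The values of *Tgfbi* and *Itga11* carry wide SEs, given above. With 3 libraries per group, single libraries were not tested for standing apart gene by gene.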

How the results depend on the processing

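Among the alternatives run, the counts of calls moved most with the use of the fold threshold. Testing against that threshold (glmTreat) gave 447 differences between the responses of clone 2 and WT (314 higher, 133 lower), 1742 responses in WT (548, 1194), 1505 in clone 2 (588, 917), 1263 genes differing between clone 2 and WT before stimulation (398, 865), 1519 after it (678, 841), and 89 responses differing between the clones (50, 39). Adjusted p alone gave 4430 (2147, 2283), 8552 (4219, 4333), 7823 (3767, 4056), 7474 (3798, 3676), 7878 (3858, 4020) and 2069 (1047, 1022) in the same order. The other alternatives stayed within 1.5 times the reported counts. With 1 library left out, totals in that order ran from 1029 to 1260 (634 to 732 higher, 381 to 539 lower), 2715 to 3001 (858 to 1047, 1843 to 1956), 2340 to 2673 (869 to 969, 1453 to 1704), 1989 to 2307 (705 to 911, 1284 to 1410), 2252 to 2541 (1042 to 1186, 1210 to 1355) and 384 to 481 (182 to 236, 198 to 245). For the difference from WT, DESeq2 called 758 higher and 424 lower and all 6 groups in 1 model 700 and 424.

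Deviations of same-numbered libraries from their group means correlated at -0.035 to 0.047 over all tested genes, which gave no sign of pairing by replicate number. Noise in genes with low counts could hide a weak pairing in this check. With the replicate number as a block, 646 genes had a higher and 418 a lower response in clone 2 than in WT, and of the genes named, *Slc25a23*, *Cited1* and *Psmb9* lost the call. Over the named genes and alternatives, 3304 outcomes were as reported, 124 lost the call, 11 gained it and none changed sign. *Fstl3* lost it without uninduced clone 2 replicate 1 (-2.49, edgeR adjusted p = 0.185), *Itga9* without stimulated clone 2 replicate 1 (4.42, adjusted p = 0.0640) and *Selenbp1* without stimulated clone 2 replicate 2 (-1.24, adjusted p = 0.0738). The others that lost it did so in 2 to 10 of the 12 fits. With 1 library left out, 2 to 5 ribosome biogenesis genes were called lower (5 without uninduced WT replicate 1) and 3 to 6 mitosis genes (3 without uninduced clone 2 replicate 3 or stimulated clone 2 replicate 2). Small list counts that moved by over 1.5 times in such fits included those of integrins and cadherins (higher 3 to 5, lower 1 to 3), BMP genes (higher 1 to 3), collagen enzymes (lower 1 to 3), acute phase genes (lower 1 to 2) and mesenchymal transcription factors (lower 1 to 2). MAP kinase feedback genes (lower 0 to 1) and prostaglandin genes (higher 0 to 1) lost their only call in that direction in some fits. Testing against the fold threshold left 0 of the collagen chains called higher. It left 1 DNA replication, 1 mitosis, 0 ribosome biogenesis and 0 interferon genes called lower. Matrix proteases and inhibitors kept 1 call in each direction. Contractile genes kept 7 lower calls and glucocorticoid genes 10 higher ones. The median difference of all genes moved by less than 0.1 under every alternative.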

Other observations

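The genes that stimulation moved in opposite directions in WT cells and clone 2 included several not described above, picked here after their values were seen. *Plpp3*, a phosphatase that clears lysophosphatidic acid, had log2 responses of -1.27 in WT cells and 1.93 in clone 2, a difference of 3.20 (edgeR, adjusted p = 2.3e-18). *Neat1*, the long noncoding RNA of paraspeckles, had -1.05 in WT cells and 1.72 in clone 2, and *P2ry2*, a receptor for extracellular nucleotides, -1.73 in WT cells and 1.18 in clone 2. *Bmf*, which encodes a BH3-only promoter of apoptosis, had -1.56 in WT cells and 1.01 in clone 2, and *Arc*, an immediate early gene best known from neurons, -2.62 in WT cells and 1.03 in clone 2, at a mean of 3.05 CPM. *Glul*, the glutamine synthetase and a glucocorticoid target, had -1.44 in WT cells and 1.01 in clone 2. The interferon-inducible genes *Ifi202b* (-2.02 in WT cells and 1.40 in clone 2) and *Ifi211* (-1.31 in WT cells and 1.23 in clone 2) turned in the same direction as *Ifi204*. These genes belong to a family of near-identical copies between which the counting could split reads. In the opposite direction, *Fgd3*, a regulator of CDC42, had 1.11 in WT cells and -1.74 in clone 2 and *Ptk2b*, a focal adhesion kinase relative, 1.28 in WT cells and -1.28 in clone 2. Against clone 1, the response of clone 2 was also higher for *Neat1* (1.43), *Arc* (1.88) and *Ifi202b* (1.94), and the difference stayed under the fold threshold for *Plpp3* (0.77), *P2ry2* (-0.55), *Bmf* (-0.50) or *Glul* (-0.66).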
